A study of Mus musculus with 4 samples.

Results

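Genes of the basement membrane and the extracellular matrix were followed through the epithelial lineages of mouse mammary organoids. They were taken as a fixed list, Col4a1, Col4a2, Col17a1, Lama3, Lamb3, Sparc, Postn, Bgn and Dcn, and make up 9 of the 32285 genes counted. All 9 were detected in at least 1 lineage, and all 9 passed the low-count filter of the fit across lineages. The basement membrane is the thin matrix sheet on which epithelium rests. Its network is woven from collagen IV and laminins, and hemidesmosomes fasten basal cells to it. In the mammary gland the basal (myoepithelial) layer touches this sheet and surrounds the luminal cells, which are either hormone receptor-positive (HR+) or hormone receptor-negative (HR-).

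The organoids were grown in Matrigel, itself a protein extract of basement membrane, from mammary glands of virgin mice 9 to 11 months old. The mice were wild type or heterozygous for a germline truncation of Brca2 (written Brca2mut/WT). Organoids were left untreated (control) or given 1 mM hydroxyurea (HU), which starves DNA replication of nucleotides, for 24 h and then 4 days of recovery, and this was repeated over serial passages. Frozen organoids of passages 0 and 4 were later thawed and grown for 3 days before the cells were sequenced, and which cells came from which passage was not known here, so that a single and a repeated exposure cannot be told apart. Each combination of genotype and treatment gave 1 droplet single-cell RNA library, in which the organoids of several mice were pooled after marking with 4 antibody tags. The key from tags to mice and passages was not used here, so the tags are called pools 1 to 4, and a tag number is not known to mark the same mouse in different libraries. Values for the libraries are given in the order wild-type control, wild-type HU, Brca2mut/WT control and Brca2mut/WT HU unless named, in unique molecular identifiers (UMIs) of the gene per 1000000 UMIs (CPM), with the cells of a lineage summed.

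The libraries held 7639 to 9358 cells and 243430259 to 302135155 gene UMIs, and 17360 of 33268 cells passed the filters, with median depths of 24180 to 26893 UMIs. Cells with Krt14 of at least 500 CPM were called basal (2217 cells), cells with Areg of at least 300 CPM HR+ luminal (569 cells) and cells with both under 300 CPM HR- luminal (14008 cells). Basal markers summed to 3587 to 3967 CPM in basal cells and to 132 to 175 in HR- luminal cells, and HR+ markers to 4767 to 7742 CPM in HR+ luminal cells. Brca2 itself was at 5.34, 5.5, 4.27 and 3.92 CPM. The 7 fibroblast markers summed to at most 10.7 CPM in any lineage, with Lum and Dpt at 0 in basal cells and Col3a1 at 0 in both luminal lineages. Endothelial markers reached 2.13 CPM, immune markers 11.8 CPM and adipocyte markers 0.0924 CPM. Pericyte markers summed to 13.5 to 46.9 CPM, with 1 of their 4 genes over 10 CPM. Library pairs shared 16 to 30 cell barcodes.

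Col4a1 and Col4a2 encode the chains that assemble into the common collagen IV trimer, and they lie head to head. In the GENCODE annotation of GRCm38, Col4a1 occupies chr8:11198423-11312826 on the minus strand and Col4a2 chr8:11312805-11449287 on the plus strand, so that their outermost starts overlap by 22 bases. The 30 bases that end at the Col4a1 start are shown because both genes begin in them. They were read 5′ to 3′ on the plus strand from RefSeq sequence of GRCm38.p6, and the capitals mark the bases from the Col4a2 start to the Col4a1 start.

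chr8:11312797-11312826: ccctcggcAGTGCGCGGGCGGCGTCTCCAA

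The capitals hold 1 GC box (GGGCGG or its complement CCGCCC), at chr8:11312812-11312817. The 300-base window from 250 bases before the Col4a2 start to 50 after it held 3 GC boxes, 1 CCAAT box (CCAAT or ATTGG) and no TATA box (TATAAA or TTTATA), and 73.7% of its bases were G or C. Over 32851 RefSeq windows of the same length, 35.7% held a GC box, 37.4% a CCAAT box and 13.6% a TATA box, and the median GC content was 52.7%. The windows of Col4a1 and Col4a2 share 78 bases, so their motif counts are not independent.

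Across lineages the matrix genes fell into 3 patterns. Col17a1, Lama3, Lamb3, Sparc, Postn and Bgn were highest in basal cells. Col4a1 and Col4a2 were carried by basal and HR- luminal cells, and nearly absent from HR+ luminal cells. Dcn was found mainly in HR+ luminal cells. Lineages were compared by edgeR's quasi-likelihood test on 12 sums, 1 for each library and lineage, with the library as block, and p-values were adjusted by Benjamini-Hochberg over 13251 genes. They measure the spread between 4 libraries that also differ in genotype and treatment. A gene could pass the low-count filter through its counts in 1 lineage alone.

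Between basal and HR- luminal cells, 6 of the 9 genes were higher in basal cells, where 32.4% of all genes tested were, and none was lower, where 33.3% of all genes were. Against HR+ luminal cells, 8 were higher in basal cells (27.3% of all genes) and Dcn was lower (26.7%). In HR+ against HR- luminal cells, Dcn, Lama3 and Lamb3 were higher (31.3% of all genes) and the other 6 were lower (34.2%). The median log2 fold change of the 9 genes was 2.49 for basal against HR- luminal cells and 4.65 for basal against HR+ luminal cells, beside medians of -0.01 and 0.04 over all genes tested. Scaling by library totals in place of TMM moved the median of all genes by 0.13 for basal against HR- and by 0.19 for HR+ against HR-, and the share of called genes that were higher from 49.3% to 60.4% and from 47.8% to 61.0%. No call on the 9 genes was lost under that scaling, and Col4a2 gained one.

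**Figure D1:**
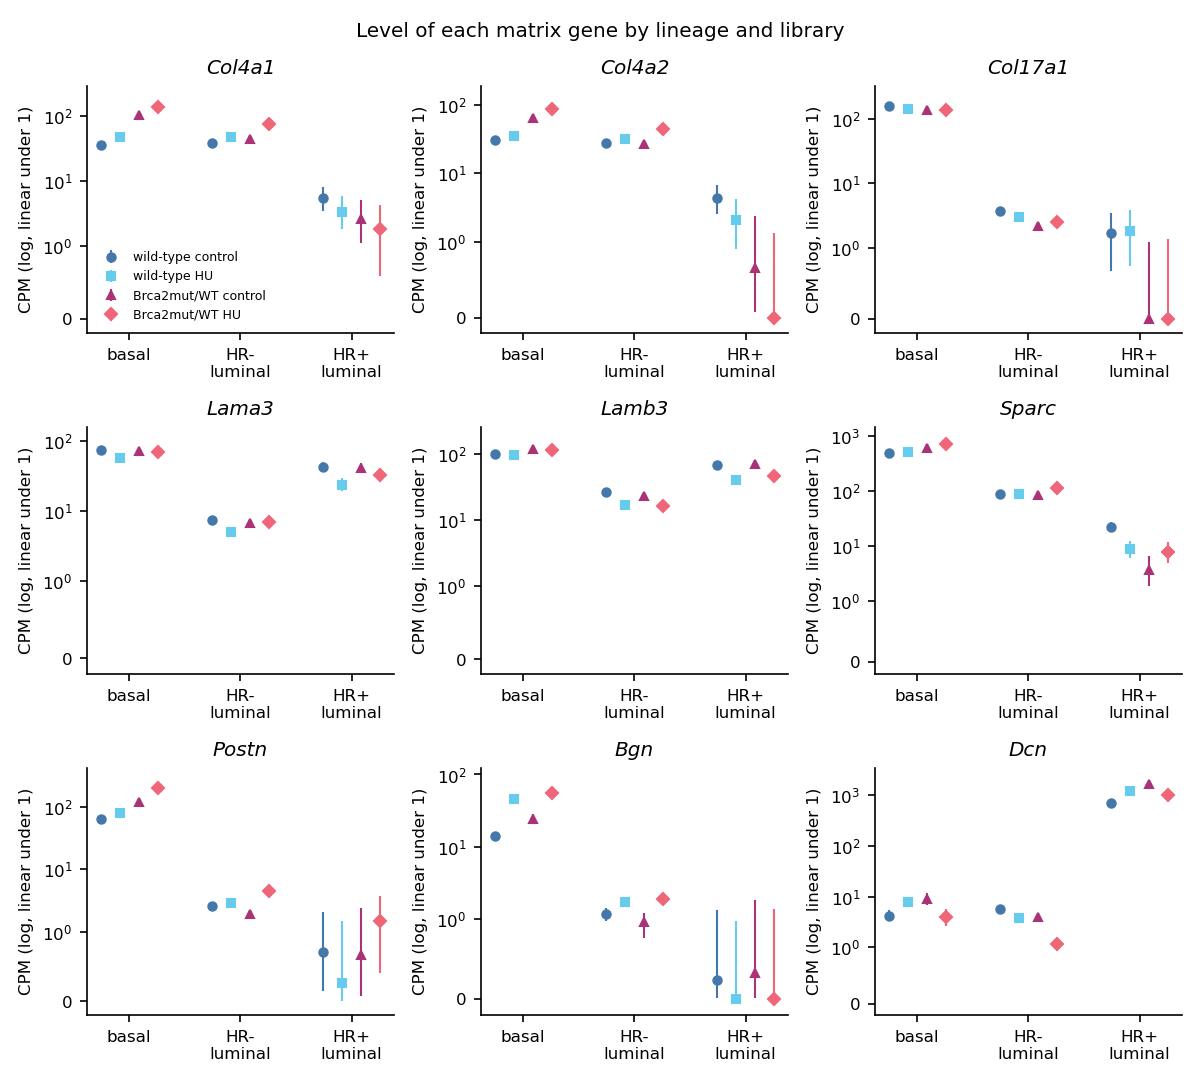
CPM of each of the 9 genes in basal, HR- luminal and HR+ luminal cells of each library, on an axis that is logarithmic above 1 and linear below. Points are summed counts of 1 library and bars are exact Poisson 95% intervals, which cover counting error only; Dcn stands at 702 to 1661 CPM in HR+ luminal cells and under 10 elsewhere.

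**Figure D2:**
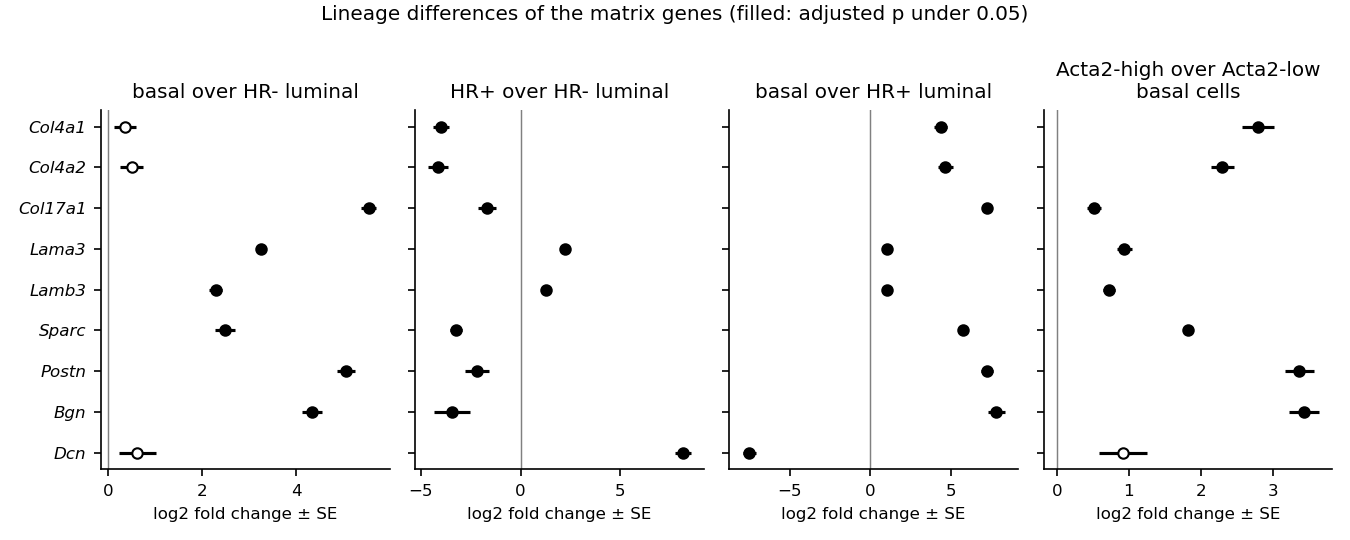
Log2 fold change with its standard error from edgeR for the 9 genes in 4 contrasts, over 4 libraries; filled points passed an adjusted p of 0.05. Open points are Col4a1, Col4a2 and Dcn in basal over HR- luminal cells, and Dcn in Acta2-high over Acta2-low basal cells.

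Collagen IV was not tied to the basal layer. In basal cells Col4a1 measured 36.3, 47.6, 103 and 136 CPM, and in HR- luminal cells 39.1, 47.9, 44.1 and 77.0 CPM. Both lineages thus overlapped, with basal cells higher only in the Brca2mut/WT libraries. In HR+ luminal cells Col4a1 fell to 5.45, 3.41, 2.64 and 1.83 CPM, from 49 UMIs in all.

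Col4a2 was at 30.3, 35, 63.3 and 86.3 CPM in basal cells, 27.8, 31.1, 26.8 and 44.1 in HR- luminal cells, and 4.27, 2.10, 0.66 and 0 in HR+ luminal cells. The count of 0 in the Brca2mut/WT HU library allows up to 1.10 CPM. Basal cells were above HR- luminal cells in 4 of 4 libraries for Col4a2 and in 2 of 4 for Col4a1. Basal and HR- luminal cells did not differ past the threshold for Col4a1 (log2 fold change 0.36, SE 0.23, edgeR adjusted p = 0.188) or Col4a2 (0.50, SE 0.24, adjusted p = 0.0919), which were called higher in basal cells in 5 and 8 of 16 alternatives. HR+ luminal cells lay below HR- luminal cells in 4 of 4 libraries for both genes, by -4.01 (SE 0.41, edgeR adjusted p = 5.54e-06) for Col4a1 and -4.15 (SE 0.48, adjusted p = 1.55e-05) for Col4a2 on the log2 scale.

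The pair moved together. Over the 14 basal sums per library and pool, the ratio of Col4a1 to Col4a2 UMIs had a median of 1.32 and ran from 1.09 to 1.99. Over the 16 HR- luminal sums the median was 1.5, from 1.09 to 2.43. By library the ratio was 1.20, 1.36, 1.62 and 1.58 in basal cells and 1.41, 1.54, 1.64 and 1.75 in HR- luminal cells. In the Brca2mut/WT control the ratio was highest in pool 4, at 1.99 in basal and 2.26 in HR- luminal cells. Its other pools stood at 1.24 and 1.13 in basal and at 1.49, 1.12 and 1.63 in HR- luminal cells, beside 1.09 to 1.52 and 1.09 to 1.55 in the wild-type pools.

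Part of the collagen IV of the HR- luminal gate, though the smaller part, came from a few cells that carried Acta2, the smooth muscle actin of contractile myoepithelium. These were 392 cells, 2.42% to 3.56% of the gate in each library, with Acta2 of at least 300 CPM and Krt14 below the gate. Their Col4a1 level was 425, 561, 865 and 950 CPM, against 31.3, 37.3, 28.9 and 52.2 CPM in the other HR- luminal cells. They held 21.7% to 35.7% of the gate's Col4a1 UMIs, 23.2% to 33.3% of its Col4a2, 30.8% to 39.7% of its Sparc, 32.7% to 58.5% of its Postn and 28.9% to 60.6% of its Bgn. Kit, a receptor that marks HR- luminal cells, was at 10.1, 4.58, 3.81 and 6.61 CPM in them and at 77.5 to 106 CPM in the rest. Trp63, a basal transcription factor, was at 69.8 to 100 CPM in them and at 7.25 to 8.98 CPM in the rest. The gate's label therefore did not hold for these cells by their markers.

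With HR- luminal cells also required to have Krt5 and Acta2 under 150 CPM, a gate chosen after seeing the data, their Col4a1 level was 29.8, 34.0, 25.7 and 43.1 CPM. Basal cells were then higher in Col4a1 by 0.99 (edgeR adjusted p = 0.00779) and in Col4a2 by 1.10 (adjusted p = 0.00478) on the log2 scale. The difference between HR+ and HR- luminal cells was then no longer past the threshold for Col17a1 (edgeR adjusted p = 0.197), Postn (0.336) and Bgn (0.0842). With a stricter gate on Krt14 and Areg alone, the basal difference in Col4a1 was -0.032. Without the wild-type control library Col4a1 (0.55, adjusted p = 0.0494) and Col4a2 (0.66, adjusted p = 0.0305) passed the threshold.

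Col17a1, Lama3 and Lamb3 belong to the hemidesmosome. Collagen XVII crosses the basal cell membrane, and the laminin alpha 3 and beta 3 chains form laminin-332, to which hemidesmosomes bind. Col17a1 lies at chr19:47646344-47692094 on the minus strand, Lama3 at chr18:12333819-12583013 and Lamb3 at chr1:193207699-193343878, both on the plus strand.

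Col17a1 measured 159, 144, 139 and 137 CPM in basal cells, 3.69, 3.03, 2.14 and 2.52 CPM in HR- luminal cells, and 1.66, 1.84, 0 and 0 CPM in HR+ luminal cells. No luminal library came near any basal library. Basal cells exceeded HR- luminal cells by 5.55 (SE 0.16, edgeR adjusted p = 7.30e-10) on the log2 scale. HR+ luminal cells held 14 Col17a1 UMIs in all, and the pooled basal level was 145-fold higher (95% counting interval 86.3 to 265). The gene had a UMI in 63.4% to 73.8% of basal cells and in 0% to 4.79% of HR+ luminal cells, at median depths of 20026 to 22130 and 24996 to 27292 UMIs.

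The laminin-332 chains were shared by basal and HR+ luminal cells. Lama3 measured 73.5, 56.1, 71.8 and 68.8 CPM in basal cells, 42.4, 23.6, 40.9 and 31.9 CPM in HR+ luminal cells, and 7.40, 5.01, 6.67 and 6.86 CPM in HR- luminal cells. The 3 lineages kept this order in 4 of 4 libraries, without overlap of their ranges. Lama3 was higher in basal than in HR+ luminal cells by 1.03 (SE 0.09, edgeR adjusted p = 3.58e-06) and in HR+ than in HR- luminal cells by 2.23 (SE 0.10, adjusted p = 7.00e-09) on the log2 scale. Lamb3 measured 100, 97.4, 120 and 116 CPM in basal cells, 68.2, 40.4, 70.3 and 46.9 CPM in HR+ luminal cells, and 26.2, 17.2, 22.9 and 16.1 CPM in HR- luminal cells. It took the same order as Lama3, with log2 differences of 1.02 (SE 0.14, edgeR adjusted p = 0.000108) and 1.26 (SE 0.14, adjusted p = 1.23e-05).

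HR- luminal cells held more Lamb3 for their Lama3 than the other lineages. The ratio of Lamb3 to Lama3 UMIs was 3.55, 3.43, 3.43 and 2.35 in HR- luminal cells, 1.36, 1.73, 1.67 and 1.69 in basal cells, and 1.61, 1.71, 1.72 and 1.47 in HR+ luminal cells. The HR- ratios lay above all others in 4 of 4 libraries.

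Sparc and Postn are matricellular genes. Sparc encodes osteonectin, which binds collagen and calcium, and Postn encodes periostin, which links collagen, fibronectin and integrins. Sparc lies at chr11:55394500-55423183 on the minus strand and Postn at chr3:54361109-54391037 on the plus strand.

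Sparc measured 488, 500, 587 and 697 CPM in basal cells, 87.8, 85.7, 84.0 and 113 CPM in HR- luminal cells, and 22.0, 8.66, 3.63 and 7.69 CPM in HR+ luminal cells. The order was the same in 4 of 4 libraries and the ranges did not overlap. Basal cells exceeded HR- luminal cells by 2.49 (SE 0.22, edgeR adjusted p = 1.84e-06), and HR+ luminal cells differed from HR- luminal cells by -3.24 (SE 0.30, adjusted p = 2.37e-06). In HR- luminal cells the gene was uneven, and the 5% of cells richest in it held 71.4% to 82.1% of its UMIs, against 20.8% to 26.8% in basal cells.

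Postn measured 63.9, 79.9, 118 and 198 CPM in basal cells and 2.59, 2.83, 1.89 and 4.48 CPM in HR- luminal cells, a log2 difference of 5.07 (SE 0.19, edgeR adjusted p = 3.22e-09). HR+ luminal cells gave 10 Postn UMIs in all. Within the basal lineage Postn was carried by few cells, and had a UMI in 16.8%, 18.9%, 21.9% and 29.7% of them. The richest 5% of basal cells held 66.1% to 72.8% of its UMIs.

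Bgn and Dcn encode biglycan and decorin, related small leucine-rich proteoglycans that bind collagen fibrils, yet they occupied opposite lineages. Bgn lies at chrX:73483602-73495933 and Dcn at chr10:97479609-97518143, both on the plus strand. Bgn measured 14.1, 45.5, 24 and 55.7 CPM in basal cells and 1.17, 1.71, 0.959 and 1.86 CPM in HR- luminal cells. Basal cells exceeded HR- luminal cells in 4 of 4 libraries, by 4.35 (SE 0.21, edgeR adjusted p = 1.50e-08) on the log2 scale. HR+ luminal cells held 2 Bgn UMIs beside 1649 in basal cells, a pooled ratio of 234 (95% counting interval 64.7 to 1935).

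Dcn measured 702, 1213, 1661 and 1005 CPM in HR+ luminal cells, 4.23, 7.83, 9.09 and 3.93 CPM in basal cells, and 5.69, 3.75, 3.89 and 1.18 CPM in HR- luminal cells. The lowest HR+ library was far above the highest of any other lineage. By pool, with at least 20 cells of the lineage, this gap had exceptions. HR+ cells of pool 4 in wild-type HU had Dcn at 7.62 CPM, while the other HR+ pools stood at 266 to 1909 CPM. Among HR- cells, pool 2 of the wild-type control reached 52.6 CPM, and the remaining HR- and basal pools at most 16.5 CPM. A single HR- cell held 162 of the 591 Dcn UMIs in the wild-type control's HR- gate. HR+ luminal cells exceeded HR- luminal cells by 8.14 (SE 0.40, edgeR adjusted p = 2.03e-08) on the log2 scale, and basal and HR- luminal cells did not differ past the threshold (0.62, SE 0.40, adjusted p = 0.190). Without the wild-type control library the basal difference was 1.15 (adjusted p = 0.00305).

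Dcn was carried by part of the HR+ cells. At least 3 Dcn UMIs were found in 30.7%, 24.7%, 45.2% and 26.0% of HR+ luminal cells (178 of 569 cells), against 0.214%, 0.202%, 0.251% and 0.0727% of HR- luminal cells, at median depths of 24996 to 27292 and 24718 to 27596 UMIs. Cells were also thinned to 5000 UMIs, which left out 18, 9, 11 and 29 shallower HR+ luminal cells. Of the remaining 158, 137, 113 and 94 cells, 33.5%, 29.2%, 49.6% and 31.9% kept a Dcn UMI, against 0.157% to 1.57% of HR- luminal cells, of which 122 to 288 a library were left out. In the HR+ cells with at least 3, the median was 35, 69.5, 54 and 47.5 UMIs. A single cell with 1091 Dcn UMIs gave 23.6% of the count in the wild-type HU library, whose level was 940 CPM without it.

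Decorin is best known as a fibroblast product, so fibroblast genes were read in the same cells. In the HR+ cells with at least 3 Dcn UMIs, Col3a1, Lum and Dpt were at 0 in all 4 libraries, and Col1a1, Col1a2 and Pdgfra were at 0.684 CPM in the wild-type control and at 0 in the other 3. Prlr, the prolactin receptor, was at 1239, 1341, 1904 and 1535 CPM there, and at 767, 857, 669 and 950 CPM in HR+ cells without a Dcn UMI. Foxa1, a transcription factor of HR+ luminal cells, was at 90.3 to 148 CPM with Dcn and at 107 to 148 CPM without. Pgr, the progesterone receptor, was at 74.7 to 184 CPM with and 61.5 to 108 CPM without, and Esr1, the oestrogen receptor, at 19.4 to 49.2 CPM with and 18.9 to 30.3 CPM without. These 4 receptor and transcription factor genes were thus present in cells with Dcn and in cells without, all of which were gated on Areg.

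**Figure D3:**
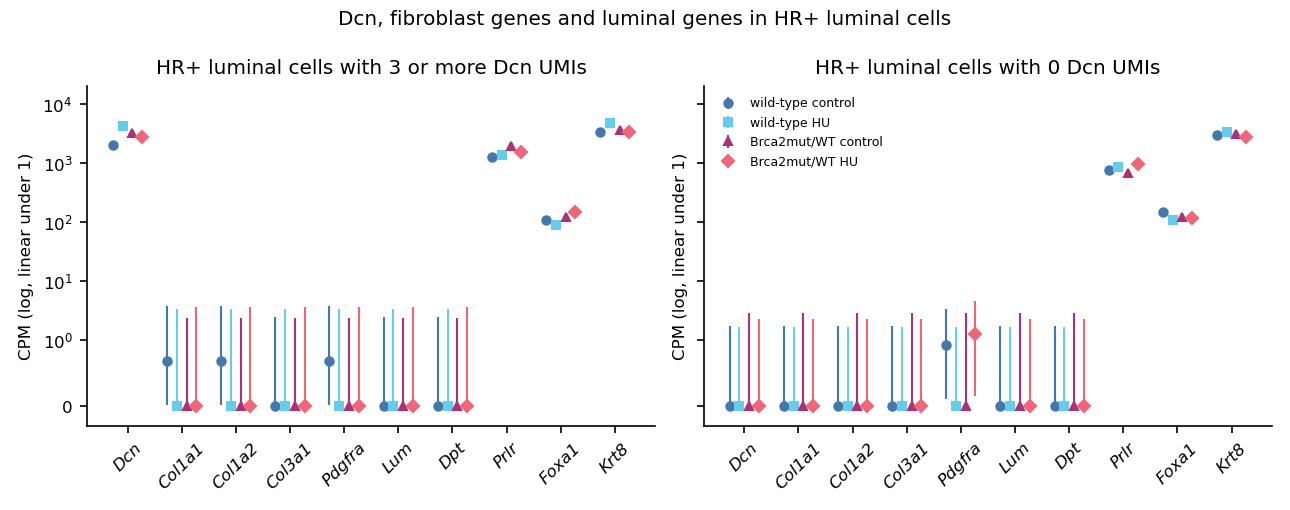
CPM of Dcn, 6 fibroblast genes and 3 luminal genes in HR+ luminal cells with at least 3 Dcn UMIs (left) and with none (right), for each library, on an axis that is logarithmic above 1 and linear below, with exact Poisson 95% intervals. Dcn was used to split the cells; the fibroblast genes stay at or near 0 on both sides and Prlr lies at 669 to 1904 CPM.

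Within the basal lineage the matrix genes followed Acta2. The 2217 basal cells were split at 300 CPM into 344 Acta2-high and 1873 Acta2-low cells, with 97 cells between 150 and 600 CPM. Acta2-high cells made up 10.9%, 16.4%, 13.4% and 25.6% of basal cells. Of the 9 genes, 8 were higher in Acta2-high cells and none was lower by the same edgeR test on 8 sums, where 14.7% of 11159 genes were higher. The median log2 fold change was 1.82 over the 9 genes and -0.0049 over all genes tested.

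Bgn and Postn showed the widest gaps of the 9. Bgn measured 76.8, 184, 136 and 152 CPM in Acta2-high and 6.41, 19.2, 5.39 and 23.1 CPM in Acta2-low cells (log2 fold change 3.43, SE 0.20, edgeR adjusted p = 5.48e-07). Postn measured 263, 361, 434 and 665 CPM in Acta2-high and 39.4, 26.6, 65.2 and 39.7 CPM in Acta2-low cells (3.36, SE 0.20, adjusted p = 4.81e-07). For both genes the lowest Acta2-high library exceeded the highest Acta2-low library.

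Col4a1 measured 162, 158, 497 and 300 CPM in Acta2-high and 20.9, 26.6, 37.2 and 80.8 CPM in Acta2-low cells, a log2 fold change of 2.79 (SE 0.22, edgeR adjusted p = 3.47e-06). Col4a2 was higher by 2.30 (SE 0.16, adjusted p = 1.77e-06) and Sparc by 1.82 (SE 0.07, adjusted p = 2.53e-08), Sparc standing at 1300 to 1575 CPM in Acta2-high cells and 349 to 469 in the others. Of the genes called, the hemidesmosome genes moved least, with log2 fold changes of 0.94 for Lama3, 0.73 for Lamb3 and 0.52 for Col17a1 and edgeR adjusted p of at most 0.00246. Dcn did not pass the threshold (0.91, SE 0.33, edgeR adjusted p = 0.0655).

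**Figure D4:**
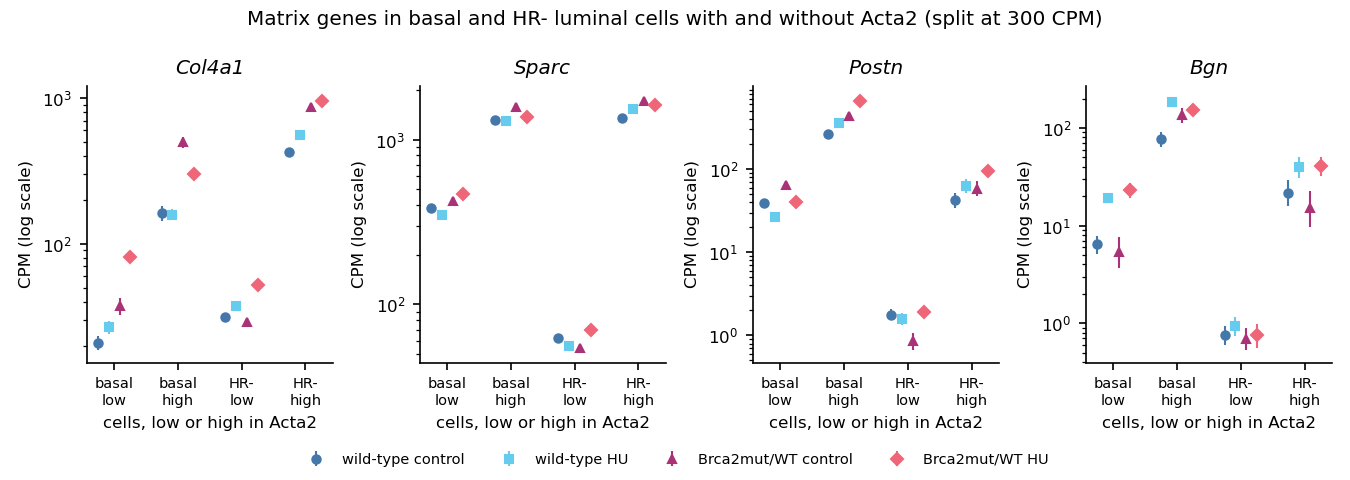
CPM on a log axis of Col4a1, Sparc, Postn and Bgn in basal and HR- luminal cells below (low) and at or above (high) 300 CPM of Acta2, for each library, with exact Poisson 95% intervals. The few Acta2-high cells of the HR- gate carry Col4a1 at 425 to 950 CPM, above the 31.3, 37.3, 28.9 and 52.2 CPM of the gate's other cells.

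Other matrix genes were in part also higher in basal cells, beside 32.4% of all genes tested that were higher in basal and 33.3% that were higher in HR- luminal cells. Listed genes could enter the test through their basal counts alone, and those low in every lineage dropped out. The counts below therefore describe the genes tested and are no support for a bias of a list. Of 15 interstitial matrix genes tested of 23 listed, 14 were higher in basal than in HR- luminal cells and none was lower, with a median log2 fold change of 2.94. They were led by Tgfbi (6.85, edgeR adjusted p = 2.23e-09), an adhesion protein, and Fbn1 (5.38, adjusted p = 5.18e-09), which encodes fibrillin. In HR- luminal cells Tgfbi was at 0.116 to 0.25 CPM and Fbn1 at 0.27 to 0.591 CPM. Of 21 tested genes of collagen processing and remodelling (23 listed), 16 were higher in basal cells and 3 lower, among them Lox (4.70, edgeR adjusted p = 1.99e-06), which cross-links collagen, and Pcolce (3.78, adjusted p = 4.65e-08), an enhancer of procollagen cleavage. Of 19 tested hemidesmosome and matrix receptor genes (20 listed), 14 were higher and 3 lower, led by the integrin subunit Itga5 (4.17, edgeR adjusted p = 1.36e-07) and the syndecan Sdc1 (2.74, edgeR adjusted p = 2.30e-09). Itga5 and Sdc1 were also higher in HR+ than in HR- luminal cells, by 4.07 and 2.90. Against HR+ luminal cells, 7 receptor genes were higher in basal cells and 5 lower. Of the processing genes 10 were higher and 7 lower there, and of the interstitial genes 11 and 4. Of all genes, 27.3% were higher and 26.7% lower in that comparison.

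Of 21 other basement membrane genes tested (29 listed), 12 were higher in basal and 6 in HR- luminal cells, the second a share near that of all genes, with a median log2 fold change of 1.15. The largest differences of that list ran towards HR- luminal cells, where Npnt, a basement membrane ligand of integrins, measured 148, 133, 140 and 155 CPM against 19.0, 10.1, 20.4 and 12.2 CPM in basal cells (log2 fold change -3.42, edgeR adjusted p = 3.11e-08). Smoc2 differed by -3.47 (adjusted p = 3.11e-07) at 4.29 to 7.39 CPM in HR- luminal cells. Against HR+ luminal cells, 11 of the same 21 genes were higher in basal cells and 5 lower, where 27.3% and 26.7% of all genes were. In Acta2-high against Acta2-low basal cells, 15 of 17 tested were higher and none lower, as were 17 of 19 processing genes, where 14.7% of all genes were higher and 1293 of 11159 lower. Of 13 interstitial genes tested in that split, 11 were higher and 2 lower. Of 19 hemidesmosome and matrix receptor genes, 11 were higher, 2 lower and 6 not called.

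Across the conditions there was 1 library per condition and no test was made. A ratio was called where it passed 1.5-fold either way, 1 of the libraries had at least 10 CPM and the exact Poisson 95% intervals of the levels did not overlap, which covers counting error only. The 4 comparisons share libraries, so a low wild-type control raises more than 1 ratio. In basal cells 10 of 32 tested pairs of gene and comparison were called, all higher in the HU or Brca2mut/WT library, and they concerned Col4a1, Col4a2, Postn and Bgn. Of all genes tested, 1.73% to 4.51% were called higher in these comparisons. The share called lower is not given here, so the common direction cannot be set against that of all genes.

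Collagen IV was higher in the Brca2mut/WT basal cells under both treatments. For Col4a1 the ratio was 2.83 (95% counting interval 2.53 to 3.17) between the control libraries, where 2.12% of all genes tested were called higher, and 2.86 (2.62 to 3.14) between the HU libraries, where 4.51% were. For Col4a2 the ratios were 2.09 (1.83 to 2.38) and 2.46 (2.21 to 2.75). The difference between HU libraries was called in 12 of 12 alternatives for both genes, at 2.28 to 4.12-fold for Col4a1. Within Acta2-low basal cells it was 3.03-fold and within Acta2-high cells 1.90-fold for Col4a1. The difference between the control libraries was called in 11 of 12. Without pool 4 it was 1.24 for Col4a1 and 1.30 for Col4a2.

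The pools show the spread of these levels, among those with at least 20 basal cells. How many of all genes had pools without overlap was not counted, here or below. A separation of pools can therefore not be set against that of other genes. In the Brca2mut/WT HU library the 3 such pools had Col4a1 at 111, 171 and 151 CPM, all above the 4 pools of wild-type HU at 71.1, 36.0, 103 and 45.8 CPM. In the Brca2mut/WT control the pools were at 45, 74.4 and 147 CPM and overlapped the wild-type control at 51.9, 22.3, 81.3 and 24.7 CPM. A test of whether the basal difference over HR- luminal cells itself depended on genotype, added after the data were seen, gave log2 differences of 1.11 (SE 0.19, edgeR adjusted p = 0.146) for Col4a1, 0.99 (adjusted p = 0.251) for Col4a2 and 1.01 (adjusted p = 0.163) for Postn. By edgeR it called 0 of 13251 genes, and 934 had an unadjusted p under 0.05; no other tool was run on it.

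Bgn was higher after HU in basal cells of both genotypes. It was 3.22-fold (2.78 to 3.74) higher in wild-type HU than in the wild-type control, where 3.18% of all genes tested were called higher, and 2.32-fold (1.93 to 2.79) higher in Brca2mut/WT HU than in its control, where 1.73% were. The pools, not set against those of all genes, did not overlap in either genotype. They stood at 52.6, 45, 46 and 48.4 CPM in wild-type HU and at 36.8, 11.8, 24.8 and 7.75 CPM in the wild-type control, and at 51.1, 51.7 and 47.9 CPM in Brca2mut/WT HU and 18.5, 19.4 and 31 CPM in its control. A Bgn UMI was found in 10.3%, 27.2%, 11.6% and 25.6% of basal cells. Both ratios were called in 12 of 12 alternatives, between 1.83 and 4.29. Within Acta2-low cells the ratios were 2.99 and 4.29, and within Acta2-high cells 2.40 and 1.12, the last with an interval from 0.907 to 1.38. The share of Acta2-high basal cells, given above, was also higher in the HU library of both genotypes. Between the control libraries Bgn was 1.70-fold (1.39 to 2.08) higher in Brca2mut/WT, and 0.786-fold without pool 4, called in 6 of 12 alternatives.

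Postn was highest in Brca2mut/WT HU basal cells. It was 2.48-fold (2.31 to 2.67) higher there than in wild-type HU and 1.68-fold (1.54 to 1.84) higher than in the Brca2mut/WT control. In Acta2-low cells the first ratio was 1.49 (1.26 to 1.76) and in Acta2-high cells 1.84 (1.70 to 2.00). In Acta2-low cells the second ratio was 0.609 (0.514 to 0.720), while in Acta2-high cells it was 1.53 (1.37 to 1.71). The pools overlapped in both comparisons. They ran from 152 to 231 CPM in Brca2mut/WT HU, 50.3 to 161 CPM in wild-type HU and 58.3 to 178 CPM in the Brca2mut/WT control. Between the controls the ratio was 1.84 (1.68 to 2.02), called in 9 of 12 alternatives, and 0.920 without pool 4. Pool 4 of the Brca2mut/WT control had Postn at 178 CPM, and its other pools were at 58.3 and 59.4 CPM.

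The hemidesmosome genes varied by less than 1.5-fold between conditions in basal cells. Col17a1 ratios over the 4 comparisons ran from 0.872 to 0.992, Lamb3 from 0.969 to 1.20 and Lama3 from 0.764 to 1.23. Sparc ran from 1.03 to 1.39. None of these was called. Without a count over all genes to compare, pools narrowly did not overlap for Lama3 in wild-type HU (52.0 to 66.4 CPM) against its control (66.8 to 79.0 CPM). The same held for Lamb3 in Brca2mut/WT HU (107 to 123 CPM) against wild-type HU (94.1 to 106 CPM).

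**Figure D5:**
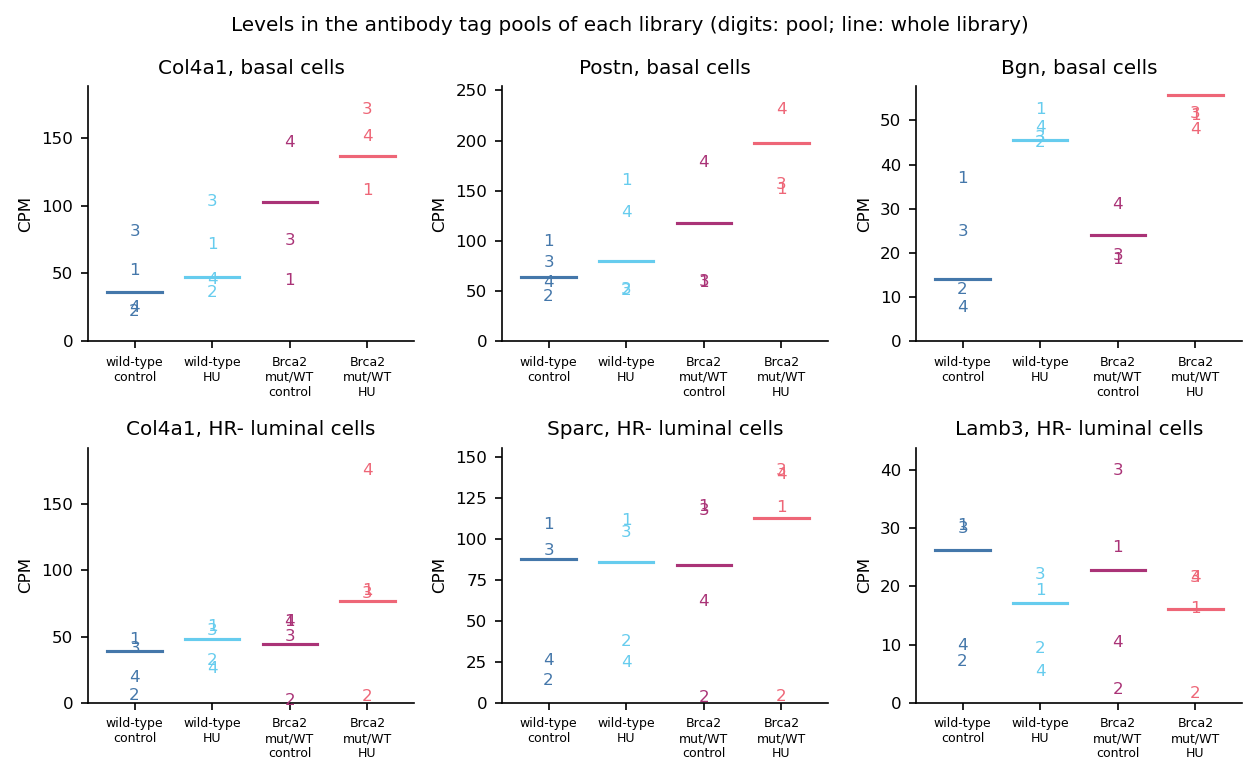
CPM in each antibody tag pool with at least 20 cells of the lineage (digits give the pool) and in the whole library (line, which also holds cells without a single tag), for 3 genes in basal and 3 in HR- luminal cells. Bgn pools of the HU libraries lie at 45 to 52.6 CPM, above the 7.75 to 36.8 CPM of the control libraries.

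In HR- luminal cells 4 of 16 tested pairs were called. Col4a1 was 1.75-fold (1.68 to 1.82) and Col4a2 1.64-fold (1.56 to 1.73) higher in Brca2mut/WT HU than in its control, where 0.373% of all genes tested were called higher. Col4a1 was also 1.61-fold (1.54 to 1.67) higher than in wild-type HU (0.587% of all genes). Lamb3 was lower in wild-type HU, at 0.656-fold (0.615 to 0.698) of the control, where 0.795% of all genes were called lower. In Brca2mut/WT HU Lamb3 was also lower than in its control, at 0.704-fold (0.654 to 0.757), short of the 1.5-fold threshold. Over 12 alternatives the 4 called ratios were called in 11, 10, 8 and 8. With no upper limit on genes per cell and under 10% mitochondrial UMIs none of the 4 was called, at 1.34 for Col4a1 and 1.31 for Col4a2 against the Brca2mut/WT control, 1.05 for Col4a1 against wild-type HU and 0.721 for Lamb3. Pool 4 of Brca2mut/WT HU had Col4a1 at 175 CPM with Acta2 at 385 CPM, against 84.6, 4.93 and 82.9 CPM of Col4a1 and 76.7, 8.50 and 58.5 CPM of Acta2 in pools 1 to 3. In the HR- cells with Acta2 and Krt5 under 150 CPM, Col4a1 stood at 25.7 CPM in the Brca2mut/WT control, 43.1 CPM in Brca2mut/WT HU and 34.0 CPM in wild-type HU. The ratio of Col4a1 to the Brca2mut/WT control was then 1.68 and remained called, and that to wild-type HU was 1.27 and no longer called.

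Pools of the same library differed in HR- luminal cells. Sparc was at 93.0 to 142 CPM in pools 1 and 3 of every library, and at 3.03 to 62.0 CPM in pools 2 and 4, apart from pool 4 of Brca2mut/WT HU at 139 CPM. Pool 2 was low in Col4a1 in the wild-type control (5.76 CPM) and in the Brca2mut/WT control and HU libraries (2.00 and 4.93 CPM). In wild-type HU it stood at 31.6 CPM and was not the lowest of the pools, which ran from 25.9 to 57.5 CPM. Lamb3 was at 16.2 to 39.9 CPM in pools 1 and 3 and at 1.64 to 21.5 CPM in pools 2 and 4, the highest of these again in pool 4 of Brca2mut/WT HU.

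In HR+ luminal cells 7 of 14 tested pairs were called. Dcn was 1.73-fold higher in wild-type HU than in its control (3.33% of all genes tested were called higher) and 0.605-fold in Brca2mut/WT HU against its control (3.35% were called lower). Between the controls it was 2.37-fold higher in Brca2mut/WT (2.85% higher). The first was called in 8 of 11 alternatives. These ratios rested on few pools. In the wild-type control Dcn was at 1623 CPM in pool 2 and at 294 and 266 CPM in pools 1 and 4, and in wild-type HU at 1632 CPM in pool 2 and 7.62 CPM in pool 4. The Brca2mut/WT libraries had 1 pool with 20 HR+ cells each, pool 4, at 1909 and 1010 CPM. Without pool 2 the wild-type ratio was 0.749, and without pool 4 the Brca2mut/WT ratio was 1.97 and that between the controls 0.470.

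In wild-type HU against its control, Lama3 was 0.557-fold (0.432 to 0.718), Lamb3 0.592-fold (0.487 to 0.720) and Sparc 0.393-fold (0.264 to 0.585), where 4.5% of all genes were called lower. In Brca2mut/WT HU against its control, Lamb3 was 0.667-fold (0.536 to 0.831), just short of the threshold, and Lama3 0.779-fold (0.592 to 1.02). Sparc, under 10 CPM in both Brca2mut/WT libraries, went the other way there, at 2.12-fold (1.02 to 4.40). Sparc was also lower in the Brca2mut/WT than in the wild-type control, at 0.165-fold (0.0881 to 0.308), where 3.02% were. With no upper limit on genes per cell and under 10% mitochondrial UMIs both called Sparc ratios turned, to 1.37 for wild-type HU and 1.31 between the controls. Over 11 alternatives they were called in 7 and 8, and the wild-type ratios of Lama3 and Lamb3 in 8 each. Pool 1 of the wild-type control had Sparc at 50.0 CPM and its pools 2 and 4 at 5.24 and 7.28 CPM. The wild-type HU pools lay below the control pools for both laminin chains, with Lama3 at 22.8 and 27.4 CPM against 51.9, 69.2 and 30.7 CPM in the control. This set 2 pools against 3, and the share of all genes with such a gap was not counted.

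For each of the 9 genes the genes most like it were sought among 10481 genes, by Pearson's r of log2(CPM + 1) over 37 sums per lineage, library and pool. The points share libraries and the lineage differences, so the values are descriptions. Col4a1 and Col4a2 were each other's nearest gene (r = 0.973), followed by Tmem47 (0.936) and Il17b (0.929) for Col4a1 and by Rflnb (0.953) and Il17b (0.944) for Col4a2. Col17a1 lay nearest to Rai2 (0.980), Fat2 (0.971) and Krt5 (0.969), Krt5 being a basal keratin. Lama3 lay nearest to Rbms3 (0.976), Clip4 (0.973) and Nectin1 (0.963), and Lamb3 to Cavin1 (0.956), Lama3 (0.953) and Lynx1 (0.951). Sparc was closest to Cbr2 (0.972), Trp63 (0.967) and Rps27a (0.967), Postn to Pdpn (0.970), Rcn3 (0.968) and Tenm2 (0.963), and Bgn to Efcab1 (0.959), Pi15 (0.956) and Catsperz (0.953). Dcn stood apart from the rest, nearest to Hba-a1 (0.948), a globin, Slc5a5 (0.944), the iodide transporter, and Ffar4 (0.926), a fatty acid receptor.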

How the data were processed

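Single cells of organoids in 4 libraries (10x kit version 3) were measured. The authors aligned reads to mm10 (GRCm38) with Cell Ranger (6.0.2 per the labels, 6.1.1 in the matrix headers) and deposited raw UMI counts per gene and cell, 243430259 to 302135155 per library. The labels name Seurat 4.0 and R 4.1.3 for later steps. The labels give 2 replicates per library and the methods 3 mice per condition, and passages 0 and 4 could not be assigned to libraries.

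Cells with 1000 to 6000 detected genes and under 5% mitochondrial UMIs were kept. Cells with Krt14 and Areg both over their gates (109) and those in no gate (457) were left out. No doublet caller was run; cells with a single antibody tag (highest at least 3 times the second and at least 10) were an alternative. Counts were summed per library and lineage and fitted in edgeR 4.0.16 (R 4.3.3; TMM, filterByExpr, glmQLFit, library block, 6 residual degrees of freedom), with adjusted p under 0.05 called. Krt14, Areg and, where split, Acta2 chose the cells and were not results. Conditions were compared by CPM with exact Poisson 95% intervals (scipy 1.17.1); intervals of a ratio cover counting error only, and a count of 0 allows up to 3 counts. The fit was tested on simulated data for basal against HR- luminal cells with 12656 genes, where 92.5% of genes changed 1.5-fold and 100% of those changed 2-fold or 4-fold were recovered and 12 unchanged genes were called. The simulated sums all followed the HR- luminal profile with a common spread, and only 200 well-counted genes were changed. These rates do not carry over to genes with few UMIs or to the real contrast, where 8711 of 13251 genes were called. Alternatives were DESeq2 1.42.0, other scaling, filters, gates, units, thinning, no block, and each library or pool left out. Proteins were not analysed here. RefSeq promoter windows were used for 7 of the 9 genes, not for Lama3 or Dcn, and windows on chromosome 18, where Lama3 lies, were left out.

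The 9 genes and the gene lists were chosen with earlier results of these data known. Named genes are the 9, the 2 largest called differences of each list for basal against HR- luminal cells, and the 3 most like genes of each of the 9.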

Additional observations from a re-analysis of the deposited data

Results flagged for a closer look

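Dcn in HR+ luminal cells moved in opposite directions after HU in the 2 genotypes. The ratio of HU to control was 1.73 in wild type and 0.605 in Brca2mut/WT. The difference between the genotypes was not tested, since each condition had 1 library. The ratios turned without pool 2 (0.749 in wild type) and without pool 4 (1.97 in Brca2mut/WT). Every condition had fewer than 4 samples, so no search for outlying samples was made.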

How the results depend on the processing

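Over 16 alternatives, 128 of 144 values of the 9 genes kept their side of the threshold and direction in basal against HR- luminal cells, 144 of 144 in basal against HR+ luminal cells and 136 of 144 in HR+ against HR- luminal cells, where the 8 others (Bgn 5, Col17a1 2, Postn 1) kept direction but lost the call. Of 15 calls gained in basal against HR- luminal cells, most were Col4a1 and Col4a2 and the rest Dcn, and Col4a1 turned to -0.032 under the stricter gate. In the Acta2 split 60 of 62 values stayed. The libraries share the replicate number 1 only. Without the replicate block the counts of called genes moved under 1.5-fold, and Bgn in HR+ against HR- luminal cells (-3.44) had an edgeR adjusted p of 0.0519. Thinned to 5000 UMIs, cells gave 3704 called genes in place of 7153 for basal against HR+, 5155 in place of 8668 for HR+ against HR-, and 1167 in place of 2929 in the Acta2 split, with fewer genes tested. Leaving out 1 library gave 1827 to 2758 called genes in the Acta2 split, the lowest without wild-type HU and 1940 without the wild-type control.

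Called condition pairs numbered 8 to 13 in basal, 1 to 5 in HR- luminal and 5 to 9 in HR+ luminal cells over the alternatives. With no upper gene limit and under 10% mitochondrial UMIs, the 4 HR- calls were lost and 1 other pair, Lamb3 in Brca2mut/WT HU against its control, was called, and Sparc ratios in HR+ cells turned to 1.37 (wild-type HU over control) and 1.31 (between controls). Without pool 4, ratios between the controls turned for basal Postn (0.920) and Bgn (0.786) and for HR+ Dcn (0.470), and Dcn HU over control in Brca2mut/WT to 1.97; without pool 2, Dcn in wild type turned to 0.749. Postn HU over control in Brca2mut/WT turned to 0.609 in Acta2-low basal cells. The cause was not tested. In HR+ luminal cells, 569 in all, Bgn, Postn and Col17a1 rest on 2, 10 and 14 UMIs.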

Other observations

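The 457 cells that met no lineage gate were rich in matrix genes. They had Col4a1 at 89.6, 133, 107 and 487 CPM, Sparc at 418, 423, 617 and 1056 CPM and Postn at 85.8, 99.3, 133 and 285 CPM, with Acta2 at 414, 570, 437 and 1296 CPM. The gates left only cells with Krt14 from 300 to under 500 CPM in this set, so its level of 377 to 400 CPM was fixed by the rule. Their median depth was 13806, 13450, 3280 and 11684 UMIs.

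Of the 109 cells over both gates, the 48 of the wild-type control had Dcn at 649 CPM and Col17a1 at 96.4 CPM, and the 28 of wild-type HU had Dcn at 1.46 CPM and Col17a1 at 106 CPM. Whether these cells are doublets was not tested.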
